A study of Homo sapiens with 2 samples.

Results

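Capicua (CIC) is a transcriptional repressor that sits on DNA at its target genes, and its repression is lifted when receptor tyrosine kinases signal through RAS to the kinase ERK. Among the genes that this pathway switches on are its own brakes. The DUSP phosphatases remove the activating phosphates of MAP kinases, while the SPRY and SPRED proteins act above them, at receptors and RAS. To ask which of these feedback genes had a CIC region nearby in prostate epithelium, 8 genes were examined: the phosphatases DUSP4, DUSP5 and DUSP6, the Sprouty genes SPRY2 and SPRY4, the Spred genes SPRED1 and SPRED2, and PHLDA1, a pleckstrin homology domain gene induced by the same pathway. Members were the called regions whose summit, the position of the highest read pileup, lay within 100 kb of the interval of 1 of the 8 genes. The intervals were set in GRCh37 and rounded to 10 kb. The 8 genes were chosen with earlier results of these data known. Of 178 regions in all, 3 were members, and 3 of the 8 genes had 1 region each.

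The regions came from chromatin immunoprecipitation followed by sequencing (ChIP-Seq) in PNT2 cells, which are immortalized epithelial cells of normal human prostate. A CIC antibody was used for 1 library and IgG, which has no chosen target, for the other, both from cells that carried no treatment or genetic change per the labels. No library had a replicate. The values below describe these 2 libraries, and intervals on reads cover counting error only, since sequenced reads without molecular identifiers need not be independent molecules. The ratio of depth between the CIC and IgG libraries was 1.29, and the genome-wide mean at this depth was 1.17 CIC reads over a fragment of 156 bp.

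To show the DNA in question, RefSeq promoter windows (GRCh38.p14) are given for 3 genes. These run from 250 bases before to 50 bases after a gene start and are written 5′ to 3′ in the direction of transcription. They are reference sequence and not the called regions, whose positions are in hg19 and were not read from a genome here. SPRY4 and SPRED1 are shown because a region fell within the interval of each. Their windows held none of the CIC letters searched, and capitals there mark GGAA on either strand, the core of ETS factor sites. DUSP6 is shown as a gene without a region whose window did hold CIC-type letters, and capitals there mark TCAATGGA, which reads TCCATTGA on the printed strand.

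The SPRY4 window lies on the minus strand at chr5:142324198-142324497, the SPRED1 window on the plus strand at chr15:38252586-38252885 and the DUSP6 window on the minus strand at chr12:89352452-89352751.
SPRY4: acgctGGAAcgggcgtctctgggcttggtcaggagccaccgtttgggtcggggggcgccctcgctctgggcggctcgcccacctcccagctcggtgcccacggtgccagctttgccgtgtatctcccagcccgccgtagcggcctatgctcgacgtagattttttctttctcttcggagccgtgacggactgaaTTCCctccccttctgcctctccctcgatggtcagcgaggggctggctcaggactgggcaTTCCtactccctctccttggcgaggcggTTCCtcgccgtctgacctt
SPRED1: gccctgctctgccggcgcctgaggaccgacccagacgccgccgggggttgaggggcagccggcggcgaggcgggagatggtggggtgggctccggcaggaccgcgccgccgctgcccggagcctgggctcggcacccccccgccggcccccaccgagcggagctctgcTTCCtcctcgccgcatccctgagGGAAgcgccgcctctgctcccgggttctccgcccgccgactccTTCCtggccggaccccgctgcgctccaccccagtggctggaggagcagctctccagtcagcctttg
DUSP6: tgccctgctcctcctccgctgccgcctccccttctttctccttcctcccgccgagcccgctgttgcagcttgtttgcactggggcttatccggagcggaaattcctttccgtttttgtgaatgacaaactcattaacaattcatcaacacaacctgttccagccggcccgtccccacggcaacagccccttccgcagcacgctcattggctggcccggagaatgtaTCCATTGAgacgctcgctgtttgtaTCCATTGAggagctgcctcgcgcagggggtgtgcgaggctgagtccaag

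The region at SPRY4 had the highest fold enrichment of the 3, at 9.38. Those at DUSP4 and SPRED1 had 4.73 and 4.38, and their order turned when the ratio was taken without the 1 that this fold adds to reads and background. For the other 5 genes, DUSP5, DUSP6, SPRY2, SPRED2 and PHLDA1, the nearest summit was 7.48 to 79.7 Mb away. All 3 member summits lay inside the gene interval itself, so that their distance to it was 0, and the next nearest summit to any of the 8 genes was 571 kb from the interval of SPRY4. The count of 3 genes therefore did not depend on a limit anywhere between 10 kb and 1 Mb. For scale, all positions within 100 kb of any of the 178 summits added up to 26.6 Mb, and the 8 gene intervals with 100 kb on either side to 1.91 Mb. The share of all genes with a region within 100 kb was not counted, because no hg19 annotation was used. Whether 3 of 8 is more than for other genes was therefore not tested.

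**Figure D1:**
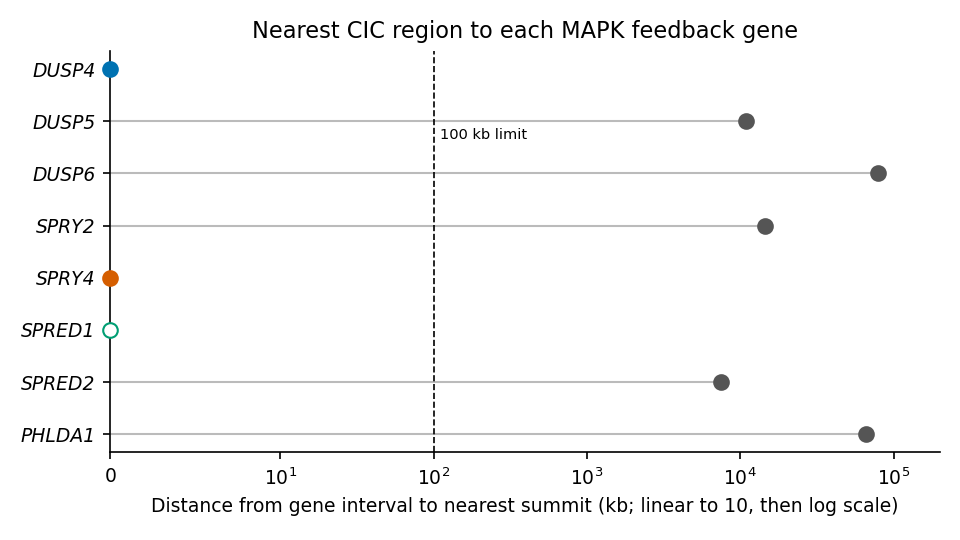
Distance in kb from the interval of each gene to the nearest summit, on an axis that is linear to 10 kb and logarithmic beyond. DUSP4, SPRY4 and SPRED1 lie at 0, while the other 5 genes lie between 7.48 and 79.7 Mb, far beyond the dashed limit of 100 kb. The open symbol marks a region with a q-value above 0.05.

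Among the phosphatases, DUSP4 was the 1 of 3 with a region. DUSP4 is a nuclear phosphatase that acts on ERK and related kinases. Its region lay on chromosome 8 from 29208328 to 29208591 (hg19), with the summit at 29208501, in the 20 kb interval of the gene and 1.50 kb from the higher end of that interval. The region was 264 bp wide. At the summit there were 17 CIC reads (95% interval by exact Poisson, 9.90 to 27.2) over 2 IgG reads. The fold enrichment, which adds 1 to the scaled CIC reads and to the background, was 4.73, with a q-value of 0.00299. That fold was low for the list: 33 of the 178 regions had a lower one. The same fold and p-value were found at 3 other regions of the list, because reads and background are whole numbers at such summits and few combinations occur.

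DUSP5 and DUSP6 had no region. DUSP5 is a nuclear phosphatase selective for ERK, and DUSP6 is its cytoplasmic counterpart. The nearest summit to DUSP5 was 11.0 Mb away on chromosome 10, in a region from 101287852 to 101289809 with a fold enrichment of 9.07. For DUSP6 it was 79.7 Mb away. Chromosome 12 held only 2 regions in all, both in its first part, and the one nearer to DUSP6 ran from 10022488 to 10022963 with a fold enrichment of 5.93. The DUSP6 interval and everything above it on that chromosome was thus without a called region.

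Of the Sprouty genes, SPRY4 had a region and SPRY2 did not. Both encode membrane-associated inhibitors of signalling from receptor tyrosine kinases to RAS and ERK. The SPRY4 region lay on chromosome 5 from 141704517 to 141704864, with the summit at 141704640, in the 20 kb interval of the gene. SPRY4 is read from the minus strand, and the summit was 5.36 kb from the end of the interval that holds the gene start, a distance within the rounding of the interval ends. At the summit there were 35 CIC reads (95% interval by exact Poisson, 24.4 to 48.7) over 2 IgG reads. The fold enrichment was 9.38 and the q-value was 1.09e-15. Of the 178 regions, 13 had a higher fold, 6 (2 of them mitochondrial) had more CIC reads and 3 had a lower p-value. It was 348 bp wide, above the median of 282 bp for all regions.

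The nearest summit to SPRY2 was 14.4 Mb above the gene on chromosome 13, at a region from 95361305 to 95361962 with a fold enrichment of 7.31. Chromosome 13 held 4 regions in all. The next region to that of SPRY4 on chromosome 5 had its summit 576 kb away, with a fold enrichment of 5.15 and a q-value of 0.00882.

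Of the Spred genes, SPRED1 had a region that did not reach a q-value of 0.05, and SPRED2 had none. Spred proteins bring neurofibromin, which switches RAS off, to the membrane. The SPRED1 region lay on chromosome 15 from 38546753 to 38546990, with the summit at 38546944. The gene is read from the plus strand over an interval of 110 kb, and the summit lay 6.94 kb from the end that holds the gene start. It held 10 CIC reads (exact Poisson 95% interval, 4.80 to 18.4) over 1 IgG read. The fold enrichment was 4.38, the p-value of the peak caller was 1.02e-05 and the q-value was 0.323. No region of the list had fewer CIC reads, and 20 of the 178 had a lower fold. At a width of 238 bp it was narrower than the median region. The nearest region to SPRED1 with a q-value of 0.05 or less was 1.14 Mb from the gene, with a fold enrichment of 9.89.

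SPRED2 was the gene without a region that came closest to one. On chromosome 2, which held 21 regions, the nearest summit was 7.48 Mb above the gene, in a region from 73142070 to 73142263 with a fold enrichment of 4.92. PHLDA1, whose product can hold back AKT signalling, lies on chromosome 12 like DUSP6, and its nearest summit was in the same region, 66.4 Mb away.

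A q-value of 0.05 or less was found for 2 of the 3 member regions, those of SPRY4 and DUSP4, where 163 of all 178 regions (91.6%) had one. The median fold enrichment of the 3 was 4.73 and that of all 178 was 6.02, with quartiles of 4.96 and 7.08. SPRY4 was above the upper quartile, and DUSP4 and SPRED1 were below the lower one. With 3 regions these medians are a description.

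**Figure D2:**
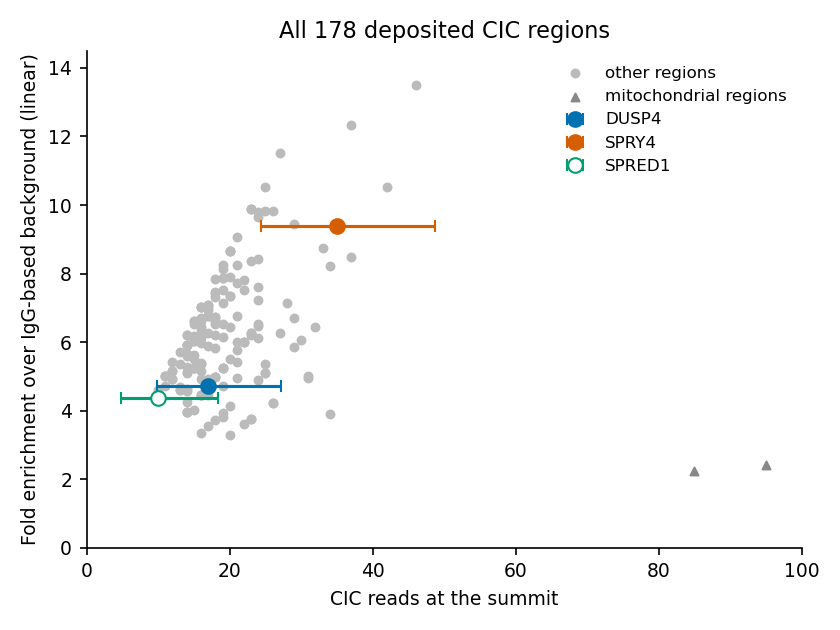
Fold enrichment (linear) against CIC reads at the summit for all 178 regions, with exact Poisson 95% intervals on the reads of the 3 members. SPRY4, with 35 reads and a fold of 9.38, lies toward the upper edge, while DUSP4 with 17 reads and SPRED1 with 10 reads (open symbol, q-value above 0.05) lie near the lower edge. Triangles are the mitochondrial regions.

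The 3 members shared a feature that their choice by position did not use. The background of each came from IgG reads counted right at the summit, and not by a wider window or the genome-wide rate. The genome-wide rate of 0.905 reads is by construction the lowest background. A background taken from the summit is therefore always above it, here with 2 IgG reads at SPRY4, 2 at DUSP4 and 1 at SPRED1. A background from the summit was found for 57 of the 178 regions, whose median fold was 5.01 against 6.02 over all 178. Of those 57, 1 had a higher fold than SPRY4, 33 a higher fold than DUSP4 and 39 a higher fold than SPRED1. Among the 24 regions that had 2 IgG reads at the summit, CIC reads ranged from 14 to 35 with a median of 18.5. SPRY4 had the most CIC reads of these 24, whereas 15 had more than DUSP4. Among the 13 regions with 1 IgG read, CIC reads ranged from 10 to 24 with a median of 14, and 11 had more than SPRED1.

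A background of 1 or 2 reads left the size of each enrichment poorly known. Without the added 1, the ratio of CIC to background was 13.6 at SPRY4 (exact binomial 95% interval, 3.49 to 116), 7.75 at SPRED1 (1.10 to 336) and 6.59 at DUSP4 (1.56 to 58.8). SPRED1 then stood above DUSP4, the reverse of their order by fold, and all 3 intervals overlapped. All 3 lower bounds were above 1, but calling peaks selects regions for an excess of CIC reads. Set against the genome-wide background of 0.905 reads instead, which was added once the values were known, the ratio was 30.0 at SPRY4 (exact Poisson 95% interval, 20.9 to 41.7), 14.6 at DUSP4 (8.49 to 23.3) and 8.57 at SPRED1 (4.11 to 15.8).

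The CIC reads alone, with the background left out, could be compared between summits with less counting error. SPRY4 had 2.06 times as many as DUSP4 (exact binomial 95% interval, 1.12 to 3.92) and 3.50 times as many as SPRED1 (1.70 to 7.92), and both intervals lay above 1. DUSP4 had 1.70 times as many as SPRED1, with an interval of 0.735 to 4.15 that held 1, so that these summits could not be told apart at this depth. These intervals take no account of the background or of the choice of each summit as the highest point of its region. With the background of each summit included, the enrichment of SPRY4 was 2.06 times that of DUSP4 and 1.75 times that of SPRED1. That of DUSP4 was then 0.85 times that of SPRED1.

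**Figure D3:**
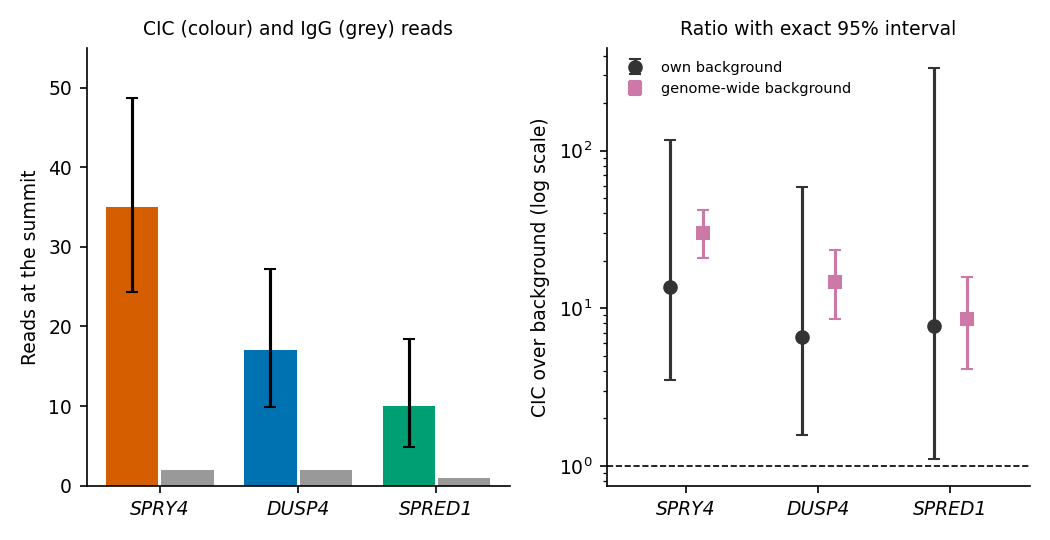
Left, reads at the summits of SPRY4, DUSP4 and SPRED1, with exact Poisson 95% intervals on the CIC reads (35, 17 and 10) beside the IgG reads in grey (2, 2 and 1). Right, the ratio of CIC to background on a log axis against the background of each summit and against the genome-wide background, with exact 95% intervals. The intervals against the own background overlap widely, and the dashed line marks a ratio of 1.

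The regions also differed in shape and setting. From the summit, the SPRY4 region reached 123 bp toward lower positions and 224 bp toward higher ones. The DUSP4 region reached 173 bp and 90 bp, and the SPRED1 region 191 bp and 46 bp. All 3 were single calls at some distance from others. The nearest other summit was 24.2 Mb from that of DUSP4, 1.14 Mb from that of SPRED1 and 0.576 Mb from that of SPRY4, while 102 of the 178 regions (57.3%) had another within 1 Mb.

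**Figure D4:**
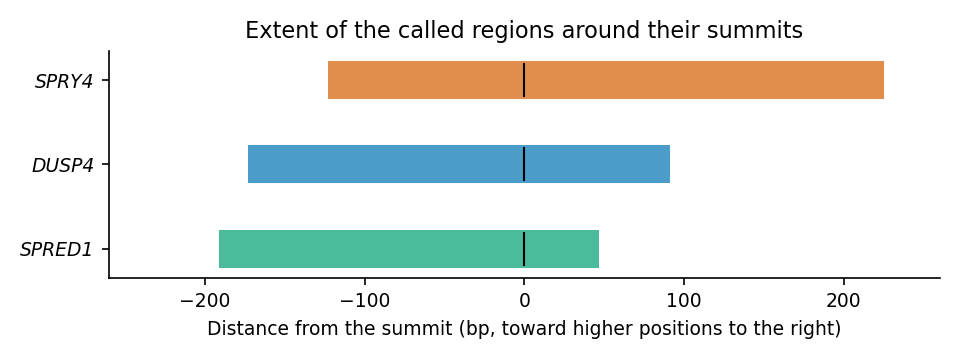
Extent in bp of the 3 called regions around their summits, with lower positions to the left and the summit marked by a line. The SPRY4 region, 348 bp wide, reaches farther above its summit, whereas those of DUSP4 (264 bp) and SPRED1 (238 bp) reach farther below.

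What the list can say of the 5 genes without a region is limited by depth. The lowest number of CIC reads at any listed summit was 10, also among the 22 regions at the genome-wide background, so an enrichment of fewer reads at DUSP5, DUSP6, SPRY2, SPRED2 or PHLDA1 would not appear. Among the 24 regions with 2 IgG reads at the summit, the lowest number was 14. The background at the 5 genes was not known, so somewhat larger numbers of reads could also be missed. Their lack of a region means that none was called in these libraries.

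To describe the promoters of these genes, motif letters were counted on both strands of the RefSeq windows, of which there were 9 for 6 of the genes (3 for SPRY2, 2 for SPRED2 and 1 each for DUSP6, SPRY4, SPRED1 and PHLDA1). DUSP4 and DUSP5 had no window in the table. The CIC letters TGAATGAA, TCAATGAA, TGAATAAA or TCAATAAA were found in 0 of the 9 windows, where 4.52% of all 35116 windows of the same length held at least 1. The related letters TGAATGGA or TCAATGGA, with GGA at the end, were found in the DUSP6 window alone, where 1.54% of all windows held them. The study names TGAATGGA as a CIC motif in the regulatory element upstream of the ETS factor gene ETV1, but does not name TCAATGGA. DUSP6 held TCAATGGA 2 times, with starts 25 bp apart and on the same strand, at bases 227 and 252 of the window printed above. At least 2 matches to TGAATGGA or TCAATGGA, on either strand, were found in 14 of the 35116 windows (0.0399%). That count was not planned and takes up the pattern of the DUSP6 window, so it is a description only. No region was called within 79.7 Mb of DUSP6, so these letters had no CIC region beside them in this list.

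GGAA was found in all 9 windows, with 3 to 6 matches each, and 95.5% of all windows held at least 1. The SPRY4 window held 4 and the SPRED1 window 3, near the median of 3 over all windows, and the DUSP6 window and 1 of the SPRED2 windows held 6. A window with 6 or more made up 16.1% of all windows. These matches describe the letters of 300 bases and do not show where a factor was bound.

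**Figure D5:**
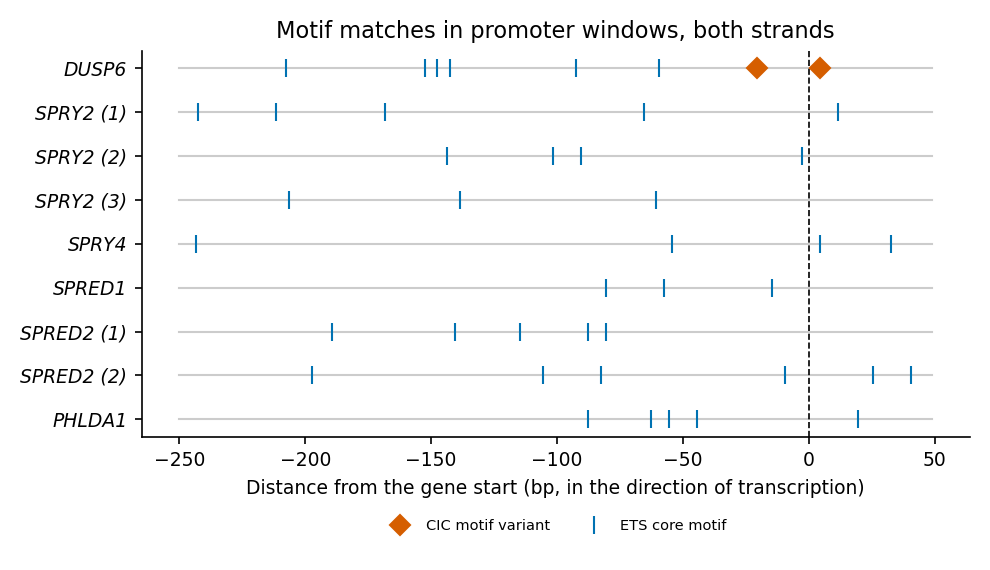
Matches in the 9 promoter windows of 6 genes, by distance in bp from the gene start (dashed line at 0) in the direction of transcription. The DUSP6 window is the only one with matches to the CIC motif variant, 2 diamonds close to the start, while ticks for the ETS core are found in all 9. Numbers in brackets separate windows of the same gene.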

How the data were processed

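ChIP-Seq was measured in PNT2 cells in 1 CIC and 1 IgG library, grouped by the antibody in the labels. Fixation was 10 min in 1% formaldehyde. The labels give sonication of the chromatin, whereas an enzymatic kit is given in the study's methods. Libraries were made from 10 ng of DNA with 13 cycles. The processing notes of the submitters name bcl2fastq 2.17, Trimmomatic 0.33, Bowtie 1.1.2, MACS2 2.1.0 and build hg19, without settings. The authors called peaks on the CIC library with IgG as control and without pooling. The deposited values were a linear fold enrichment (a ratio of CIC to local background at the summit), the −log10 of a p-value and of a q-value, and a score deposited as 10 times that last value, cut to a whole number. Column values of positions were deposited with starts counted from 0 and are printed with the first base as 1.

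All 178 distinct regions were kept. The 8 genes, their intervals and the motif lists were chosen with earlier results of these data known. All members are named, each with its region or its nearest summit. The fixed list of other pathway genes was not counted, because no hg19 annotation was used. Distances to a gene start by strand took the strand from the promoter table, which has it for 6 of the genes.

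Reads were recovered from fold and p-value, with the fold as (scaled CIC reads + 1) / (background + 1). A scale of 0.775 gave whole CIC reads in 178 of 178 regions, with the p-value matched within 0.0005 on the −log10 scale. Backgrounds came from IgG reads at the summit, from 1 kb or 10 kb, or from the genome-wide rate. The recovery and the motif search were tested on simulated data. The simulated read numbers all lay above the 10 CIC reads of SPRED1, so the test of the recovery did not cover counts that low. Intervals are exact Poisson or Clopper-Pearson 95% intervals. Python 3.11.15, scipy 1.17.1 and pandas 2.3.3 were used. Alternatives were tried for the distance, the q-value, the background, the joining of regions and the motif letters.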

Additional observations from a re-analysis of the deposited data

How the results depend on the processing

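The number of genes with a region was 3 at limits of 10 kb, 50 kb, 200 kb and 1 Mb, by the nearest region edge and by the end of the interval with the gene start, and 2 at a q-value of 0.05 or 0.01, where SPRED1 was lost. The number of regions was 3, or 4 at 1 Mb and 2 at either q-value, and joining changed nothing. Without the added 1, the fold of 9.38 at SPRY4 became 13.6 and that of 4.38 at SPRED1 became 7.75, since the addition weighs most on low backgrounds by construction. Against the genome-wide background, added once the values were known, the values were 30.0 at SPRY4, 14.6 at DUSP4 and 8.57 at SPRED1. This background is by construction the lowest. The median fold of 4.73 became 7.05 over the 2 regions at either q-value. Windows with CIC letters rose from 0 to 1 when the letters ending in GGA were added. Reading open backgrounds as 10 kb moved nothing, because no member had one. No paired analysis was possible because there was 1 library of each kind. With 10 to 35 CIC reads over 1 or 2 IgG reads, depth limits the size and order of the 3 enrichments. The positions rest on gene intervals rounded to 10 kb, so no region is placed in a promoter, exon or intron.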
